A study of Mus musculus with 14 samples.

Results

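The cytosolic ribosomal protein genes were described across 14 single-cell RNA-seq libraries of the *Atoh1* lineage in the mouse hindbrain. The members were every gene whose symbol is Rpl, Rps or Rplp followed by a number, with at most 1 closing letter a, x, y or l, together with *Rpsa*, and rows with a pseudogene ending (-ps) were left out. This rule uses names and no measured value, and it took 80 of the 31054 genes in the matrices. Of these, 77 had a mean above 100 CPM (the UMIs of a gene per 1000000 UMIs of a library), and the remaining 3, *Rpl3l*, *Rpl10l* and *Rpl39l*, were nearly silent.

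The study asked how a hypomorphic *Atoh1* allele alters the neurons that arise from the rhombic lip, the dorsal hindbrain zone in which this transcription factor starts neuronal differentiation. Control embryos were Atoh1Cre/+; Rosa lsl-tdTomato/+ and mutant embryos were Atoh1Cre/S193A; Rosa lsl-tdTomato/+, written here as Atoh1S193A/-, all on C57BL/6J. Both genotypes therefore carried 1 null *Atoh1*Cre allele and the tdTomato reporter, and cells were sorted as tdTomato-positive and DAPI-negative, so every library holds cells with a history of *Atoh1* expression plus whatever else passed that gate. The hindbrain of 1 embryo gave each library at E14.5 and at E18.5, with 3 control and 3 Atoh1S193A/- libraries at each stage in littermate pairs, and the 2 libraries at P5 were control only, from the pontine nucleus of several pooled pups. S193A is a single amino acid change, so counts of *Atoh1* do not check the genotype label. Stage, dissected tissue and pooling cannot be told apart between P5 and the embryos.

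After filtering, 80250 cells remained, 3248 to 8726 in a library, with 59993081 to 185029057 UMIs per library, of which 8566061 to 22271442 came from the members. The median UMIs per cell lay between 12011 and 20922. Between 13 and 67 cell barcodes were shared by any pair of libraries, none with equal UMI totals. *Atoh1* itself stood at 55.0 to 144 CPM at E14.5, 28.6 to 54.0 CPM at E18.5 and 2.36 to 3.84 CPM at P5. Mitochondrial transcripts took 2.77% to 4.01% of UMIs in the kept cells. The header of E14.5 control libraries 1 and 2 names Cell Ranger 3.1.0, and that of the other 12 names 5.0.1.

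Each cytosolic ribosome carries 1 copy of most ribosomal proteins, which are assembled with ribosomal RNA in the nucleolus before the small and large subunits are exported. Most mammalian ribosomal protein mRNAs begin with a run of pyrimidines at the cap, the 5′ terminal oligopyrimidine tract, through which the mTOR pathway and LARP1 set their translation as a group. Growing progenitors make ribosomes for each division, whereas a neuron has left the cell cycle and keeps its ribosomes for synthesis in the soma and along its processes.

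The members are scattered over 19 chromosomes, with 14 on chromosome 7 and 4 (*Rpl10*, *Rpl36a*, *Rpl39* and *Rps4x*) on the X. RefSeq start windows of GRCm38, 10 bases before to 20 bases from the annotated start, were found for 60 of the 80 members. A pyrimidine run, here a C followed by at least 7 letters C or T on the coding strand, was present in 23 of the 60 (38.3%), compared with 10.5% of 19407 genes. In the 300 bases around the start, CCGGAAG on either strand was present in 25 of 60 (41.7%) against 12.1% of genes, and TATAA, 40 to 15 bases before the start, in 4 of 60 (6.67%) against 4.69%. These are matches of letters, and the annotated start may lie a few bases from the one used. The windows below are those of some members named in the results, 1 window each, with the pyrimidine run in capitals. The first 5 hold a run and the last 4 do not, a split that does not stand for the 60 members. A further window of *Rps27l* and the windows of *Rpl4*, *Rplp0*, *Rps2*, *Rpl12* and *Rpl22*, which are not printed, hold no run.
*Rps12* (chr10:23787190-23787219, minus strand): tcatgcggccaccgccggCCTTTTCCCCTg
*Rps27* (chr3:90213629-90213658, minus strand): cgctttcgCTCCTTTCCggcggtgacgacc
*Rpl13a* (chr7:45128726-45128755, minus strand): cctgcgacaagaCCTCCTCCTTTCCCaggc
*Rpl35* (chr2:39005112-39005141, minus strand): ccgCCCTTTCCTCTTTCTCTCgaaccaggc
*Rpl38* (chr11:114668570-114668599, plus strand): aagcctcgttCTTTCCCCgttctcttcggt
*Rps27l* (chr9:66946076-66946105, plus strand): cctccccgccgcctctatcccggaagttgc
*Rps28* (chr17:33824543-33824572, minus strand): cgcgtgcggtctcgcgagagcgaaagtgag
*Rpl27* (chr11:101442235-101442264, plus strand): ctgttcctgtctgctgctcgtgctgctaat
*Rpl10* (chrX:74270806-74270835, plus strand): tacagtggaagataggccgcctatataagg

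Ribosomal protein mRNAs were among the most abundant in these cells. The members made up 56 of the 100 genes with the highest mean CPM and 74 of the top 200. UMIs were counted at the 3′ end of each molecule, so the values below are counts of molecules and were not divided by length. In UMIs, *Rpl13* stood at 3386 ± 573 CPM (mean and SD, n = 14 libraries), *Rps24* at 3205 CPM, *Rpl41* at 3023 CPM and *Rps29* at 2963 CPM. At the low end, above the 3 silent members, *Rps27l* stood at 283 CPM and *Rpl13a*, a large subunit protein also known for binding inflammatory mRNAs, at 289 CPM. The 10 highest members held 20.7% of member UMIs and the 10 lowest 3.105%. Reads of ribosomal protein genes can also match their processed pseudogenes, and the counts of single members are uncertain to that extent.

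The members did not vary in one fixed proportion. Over the 14 libraries their median coefficient of variation was 17.9%, compared with 19.5% for the 1734 genes above 100 CPM. The steadiest was *Rps7* at 9.89%. The most variable were *Rpl35* (34.2%), *Rps28* (33.0%) and *Rps29* (30.1%), the first a large subunit protein and the others small subunit proteins. In control libraries 1 to 3 at E14.5, *Rpl35* stood at 1236, 605 and 856 CPM, and in their Atoh1S193A/- littermates at 1884, 548 and 976 CPM. At E18.5 the *Rpl35* values were 938, 865 and 1015 CPM in controls and 899, 870 and 637 CPM in mutants. Both libraries of litter 1 lay above, and both of litter 2 below, the remaining E14.5 libraries, and the means of the 3 litters spanned 1.40 on the log2 scale for *Rpl35*, compared with a median of 0.22 over the members. For *Rpl27*, the widest at E18.5, the litters spanned 0.66. The span between litters was larger than the mean difference between genotypes for 60 of 77 members at E14.5 and for 72 of 77 at E18.5. A range of 3 litters and a difference of 2 genotypes are unlike measures. The same count was not made over all genes, so it does not set the members apart.

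Tissue-restricted paralogs were close to absent. *Rpl10l*, known from testis, had 0 to 1 UMI per library, *Rpl39l*, also known from testis, 0 to 73, and *Rpl3l*, known from muscle, 0 to 71. A UMI of *Rpl3l* was seen in at most 0.928% of the cells of any library, of *Rpl39l* in at most 0.424% and of *Rpl10l* in at most 0.0212%. The highest counts of *Rpl3l* and *Rpl39l* were in P5 libraries. *Rps27l* was different, since it is a paralog of *Rps27* and a known p53 target, and it was present in every class compared below.

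To compare cells at different steps of differentiation, cells of each stage were clustered with the members left out, and clusters were named from marker genes. Most progenitor-like clusters led with cycling genes such as *Top2a* and *Cenpf*, but 1 at E14.5 (1431 cells) led with *Ccnd1* and *Fgf15* and 1 at E18.5 (92 cells) with *Pvalb* and *Fst*. An E14.5 cluster of 1285 cells that scored highest for newborn neuron markers led with *S100a6*, *Eln*, *Rassf4*, *Mfap4*, *Atoh1* and *Gadd45g*, none of them on that marker list, and had little *Nhlh1*, a newborn neuron marker (mean of 0.30 as ln(1 + UMIs per 10000)), little *Mki67*, a cycling marker (0.05, against 1.64 in the largest progenitor-like cluster), and little *Mapt*, a neuronal microtubule protein (0.25). It was given no cell type name and is called the low-Mapt *Atoh1*+ cluster. Neuron-like clusters had mean *Mapt* above 1 on that scale, and clusters that scored highest for newborn neuron markers are part of that class. The classes are clusters of the same cells, so their differences are described with no test.

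Among these classes, ribosomal protein genes took the largest part of the UMIs in the low-Mapt *Atoh1*+ cluster, a smaller part in progenitor-like cells and the smallest in neuron-like cells. The member share of UMIs in progenitor-like cells was 19.5% ± 0.77 at E14.5 (SD, n = 6 libraries, 3844 cells) and 19.5% ± 0.89 at E18.5 (n = 6, 6794 cells). It was 22.9% ± 0.85 in the low-Mapt *Atoh1*+ cluster (n = 6, 1285 cells), whose values were 21.8%, 22.9% and 23.9% in control and 23.9%, 22.2% and 23.0% in Atoh1S193A/- libraries 1 to 3. In neuron-like cells it was 11.2% ± 0.29 at E14.5 (n = 6, 18322 cells), 11.6% ± 0.21 at E18.5 (n = 6, 12733 cells) and 9.37% ± 0.15 at P5 (n = 2, 8878 cells). The neuron-like values of the 14 libraries, 9.26% to 11.8%, did not overlap the progenitor-like values of the embryonic libraries, of which the E14.5 controls had 18.3%, 19.1% and 19.9% and the mutants 20.4%, 19.2% and 20.1%. In member UMIs per cell, progenitor-like cells averaged 4870 at E14.5, cells of the low-Mapt *Atoh1*+ cluster 3919 and neuron-like cells 2032. At P5 the neuron-like cells held 2730 member UMIs each, more than the 1774 at E18.5, while their other UMIs stood at 26410 against 13546. In these sums, a change in RNA per cell and a change in which cells were caught cannot be told apart.

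**Figure D1:**
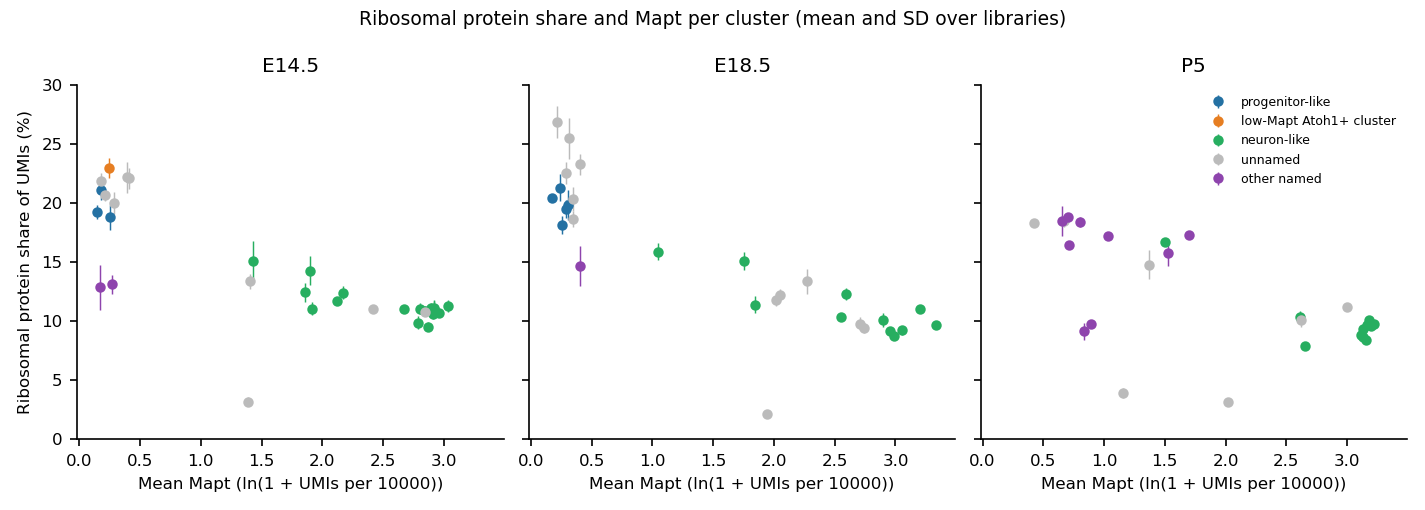
Member share of UMIs (%) in each cluster against the cluster's mean *Mapt* level as ln(1 + UMIs per 10000), 1 panel per stage, with points at the mean over libraries and bars of 1 SD. Clusters of low *Mapt* reach 26.8% at E18.5, neuron-like clusters of high *Mapt* lie near 10%, and a few clusters of very low UMI count lie between 2.15% and 3.87%.

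Within the neuron-like class the share also differed between clusters, as the plot of share against *Mapt* shows. Its clusters that scored highest for newborn neuron markers ran from 11.0% to 15.0% at E14.5 and from 11.4% to 15.9% at E18.5. At P5 a cluster led by *Nhlh1* and *Necab3* was at 16.7% in the 1 library with enough cells, and one led by *Grp* and *Eomes*, in which *Nhlh1* was nearly absent, was at 10.3%. At E14.5 the class ran from 9.52% ± 0.40 in a cluster led by *Calb2*, *Tbr1* and *Lmx1a* to 15.0% ± 1.76 in one led by *Tcf7l2* and *Tfap2d* that also expressed *Neurog1* and *Neurog2*. At E18.5 the class ran from 8.72% ± 0.23 in a cluster led by *Rorb* to 15.9% ± 0.70 in one of low *Mapt* led by *Sept4* and *Nhlh1*. The low-Mapt *Atoh1*+ cluster was close to 3 larger unnamed E14.5 clusters of low *Mapt*, at 21.8% ± 0.69 in one led by *Rspo1* and *Dkk3*, 22.2% ± 1.30 in one led by *Sp5* and *Carnmt1* and 22.1% ± 0.86 in one led by *Nts* and *Barx2*. The highest values of all were in 2 E18.5 clusters that stayed unnamed, 25.5% ± 1.73 in a cluster led by *Pmaip1* and *Fgf8* and 26.8% ± 1.36 in one led by *Pvalb* and *Fst*. The lowest were in unnamed clusters of few UMIs per cell, with medians of 1940 at E14.5 and 2421 at E18.5, in which the member share was 3.16% ± 0.37 and 2.15% ± 0.25.

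All of the measured members stood lower in neurons than in progenitors. In each of the 12 embryonic libraries, the CPM of all 77 members was lower in neuron-like than in progenitor-like cells, and 32% of all genes were lower in every library. The median log2 difference (on CPM + 1) over the members was −0.79, against 0.11 over all genes. *Rps27l* differed most, at 165 ± 19.4 CPM in neuron-like and 476 ± 21.4 CPM in progenitor-like cells (SD, n = 12), a median log2 difference of −1.57 that ranged from −1.73 to −1.25. *Rps12*, a small subunit protein, followed at −1.14, with 1558 against 3420 CPM. *Rps20* (−1.13), *Rpl12* (−1.12), *Rplp1* of the ribosomal stalk (−1.11) and *Rps19* (−1.07), the gene most often affected in Diamond-Blackfan anaemia, lay close to it. At the other end were *Rpl10*, which joins the large subunit late in its assembly, at −0.20 (−0.32 to −0.03), *Rpl38*, known for its part in translating *Hox* mRNAs, at −0.25, and *Rpl24* and *Rpl37* at −0.38.

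The low-Mapt *Atoh1*+ cluster stood above the progenitor-like cells. Of the 77 members, 71 were higher in every one of the 6 E14.5 libraries, compared with 29.7% of genes, 2 were lower in every one, compared with 33.1% of genes, and the median was 0.24. *Rpl13a* led with 562 ± 30.8 against 378 ± 33.5 CPM, a log2 difference of 0.59 (0.47 to 0.65), and *Rpl37* at 0.56 and *Rpl10* at 0.43 were also high. The 2 that were lower were *Rps27l* at −0.25 (−0.38 to −0.13) and *Rplp1* at −0.06. Neuron-like cells stood below the low-Mapt *Atoh1*+ cluster for 77 of 77 members, compared with 30.9% of genes, with a median of −1.06, a contrast that shares that cluster's cells with the one before. The difference was widest for *Rpl13a* (−1.48) and *Rpl22* (−1.46) and narrowest for *Rpl10* (−0.56). *Rps27* and *Rps27l* differed in their order of classes. *Rps27* ran from 1418 to 2521 CPM in progenitor-like, from 1782 to 2701 CPM in the low-Mapt *Atoh1*+ cluster and from 679 to 1458 CPM in neuron-like cells, and *Rps27l* from 432 to 500, from 369 to 418 and from 89.2 to 206 CPM.

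**Figure D2:**
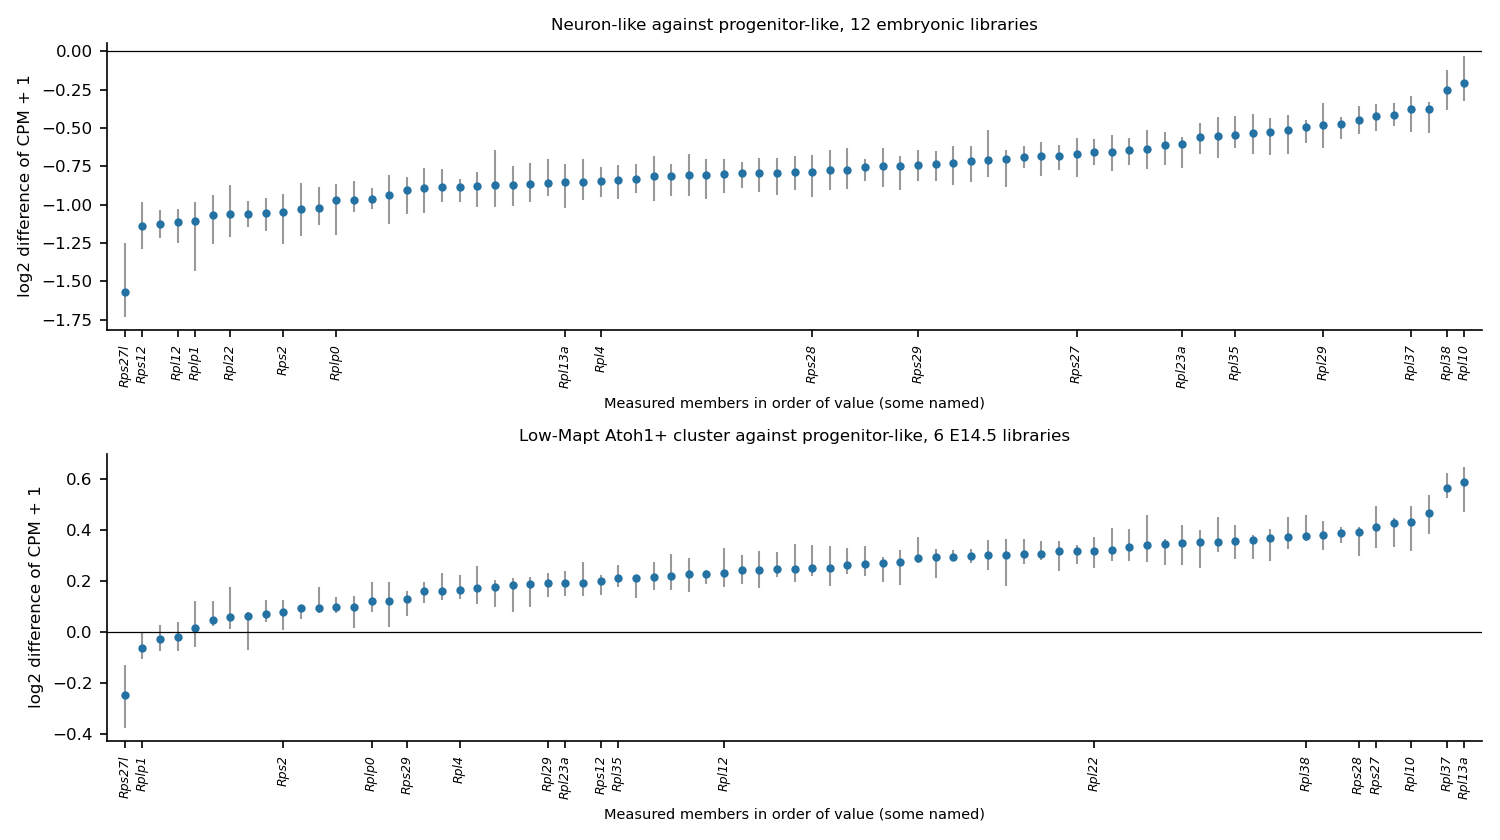
Log2 difference of CPM + 1 for each of the 77 measured members, neuron-like against progenitor-like cells in 12 embryonic libraries and the low-Mapt *Atoh1*+ cluster against progenitor-like cells in 6 E14.5 libraries, with points at the median over libraries and lines from the lowest to the highest library, and with some members named on the axis. All members lie below 0 in the neuron-like contrast, from −1.57 for *Rps27l* to −0.20 for *Rpl10*, and 71 lie above 0 in every library in the other contrast.

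Genes of related function were compared in the same cells. The 7 ribosomal proteins outside the symbol rule, such as *Rack1* and *Fau*, were lower in neuron-like than in progenitor-like cells of every library, with a median of −0.67. Of 18 elongation factors and other mRNAs with a terminal pyrimidine tract, 14 were lower and 1 higher in every library, of 24 initiation factors 19 and 2, of 50 ribosome biogenesis genes 39 and 3, and of 19 growth and mTOR regulators 7 and 6. Of 77 mitochondrial ribosomal protein genes, 34 were lower and 12 higher. Beside these lists, 32% of all genes were lower and 40.9% higher in every library. Between the low-Mapt *Atoh1*+ cluster and progenitor-like cells, 33.1% of all genes were lower and 29.7% higher in every library. There 23 of 50 biogenesis genes were lower and 5 higher, and 71 of 77 members were higher. Of 17 elongation factors and other mRNAs with a terminal pyrimidine tract, 2 were lower and 11 higher, with a median of 0.19. Of the 7 ribosomal proteins outside the symbol rule 3 were lower and 4 higher, of 24 initiation factors 10 and 3, and of 19 growth and mTOR regulators 5 and 7. Of 77 mitochondrial ribosomal protein genes, 23 were lower and 19 higher, near the shares of all genes.

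Non-neuronal cells of the sorted P5 tissue carried their own levels. The member share was 18.4% ± 1.00 in microglia-like cells (SD, n = 2 libraries, 936 cells), 12.9% ± 0.085 in oligodendrocyte lineage-like cells (1296 cells) and 9.10% ± 0.69 in astroglia-like cells (594 cells), with 9.37% ± 0.15 in neuron-like cells. The dissociation response stood apart between these classes, with 11 of 11 tested genes higher in microglia-like than in neuron-like cells (median log2 difference 4.08), 7 of 10 in astroglia-like cells (1.499) and 3 of 10 in oligodendrocyte lineage-like cells (−0.73), and its part in the values that follow was not tested. Of the 77 members, 77 were higher in microglia-like than in neuron-like cells of both libraries (34.2% of genes), with a median of 0.99. In oligodendrocyte lineage-like cells 72 were higher (43.5% of genes) and 3 lower (49.5% of genes), with a median of 0.48, and in astroglia-like cells 36 were lower (52.6% of genes) and 28 higher (38.1% of genes), with a median of −0.06. *Rps27l* was the member furthest above neuron-like cells in each of these classes, at 421 CPM in microglia-like, 335 CPM in oligodendrocyte lineage-like and 320 CPM in astroglia-like cells against 89.2 CPM in neuron-like cells. *Rplp0*, the core of the ribosomal stalk, stood at 2527, 1802 and 1168 CPM in these classes against 766 CPM. In astroglia-like cells *Rpl3*, which lies near the peptidyl transferase centre, was below the neuron-like level, at 830 against 1372 CPM. Within the oligodendrocyte lineage the share ran from 9.75% ± 0.10 in a cluster led by *Mag* to 15.8% ± 1.09 in one led by *Pdgfra* and 17.3% ± 0.29 in one led by *Bmp4* and *Gpr17*. A cluster of few UMIs per cell (median 2764, 234 cells) led by *Mobp*, *Mbp* and *Mog*, genes of myelin-forming cells as is *Mag*, was also high, at 17.2% ± 0.072.

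Over all cells of a library, the member share was 14.28%, 13.15% and 14.47% in control libraries 1 to 3 at E14.5 (mean 13.97% ± 0.72, SD) and 16.8%, 13.9% and 15.7% in their Atoh1S193A/- littermates (15.5% ± 1.42). At E18.5 it was 16.0%, 16.9% and 16.2% in controls (16.4% ± 0.49) and 15.9%, 16.9% and 14.7% in mutants (15.8% ± 1.09). At P5 it was 9.93% and 10.3%. Mutants were above their control littermates in the 3 pairs at E14.5, by 2.48, 0.798 and 1.18 percentage points, and below them in the 3 pairs at E18.5, by 0.129, 0.0699 and 1.54 points, while the ranges of the genotypes overlapped at both stages. Progenitor-like cells took 9.27%, 5.27% and 9.62% of the cells of control libraries at E14.5 and 18.2%, 7.93% and 17.6% of those of mutant libraries. The summed CPM of 12 genes of the dissociation response, which is set off when tissue is taken apart, was also higher in the 3 mutants of E14.5, at 1593, 1223 and 1369 against 1507, 909 and 1154 CPM in their control littermates. At E18.5 this sum was 1156, 1213 and 1478 CPM in mutants against 1227, 1126 and 1246 CPM in controls. The part of the progenitor-like share of cells and of the dissociation response in the result was not tested. With the class mix of the stage applied to each library, the means were 14.3% and 14.9% at E14.5 and 16.5% and 15.9% at E18.5. The values of libraries 1 to 3 at E14.5 were then 14.02%, 14.10% and 14.85% in controls and 15.38%, 14.45% and 14.89% in mutants. At E18.5 they were 15.72%, 16.65% and 17.00% in controls and 15.49%, 16.61% and 15.62% in mutants. In neuron-like cells alone the mutant minus control differences were 0.446, −0.194 and −0.647 points at E14.5 and −0.142, 0.0383 and −0.469 points at E18.5. The unnamed clusters together held 10098 cells at E14.5 and 11937 at E18.5. Their mean share was 16.5% ± 0.99 in controls and 18.4% ± 1.29 in mutants at E14.5, and 19.2% ± 1.06 and 18.4% ± 1.16 at E18.5. These clusters differ in share and entered the class mix as 1 class, so it does not even out their make-up.

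**Figure D3:**
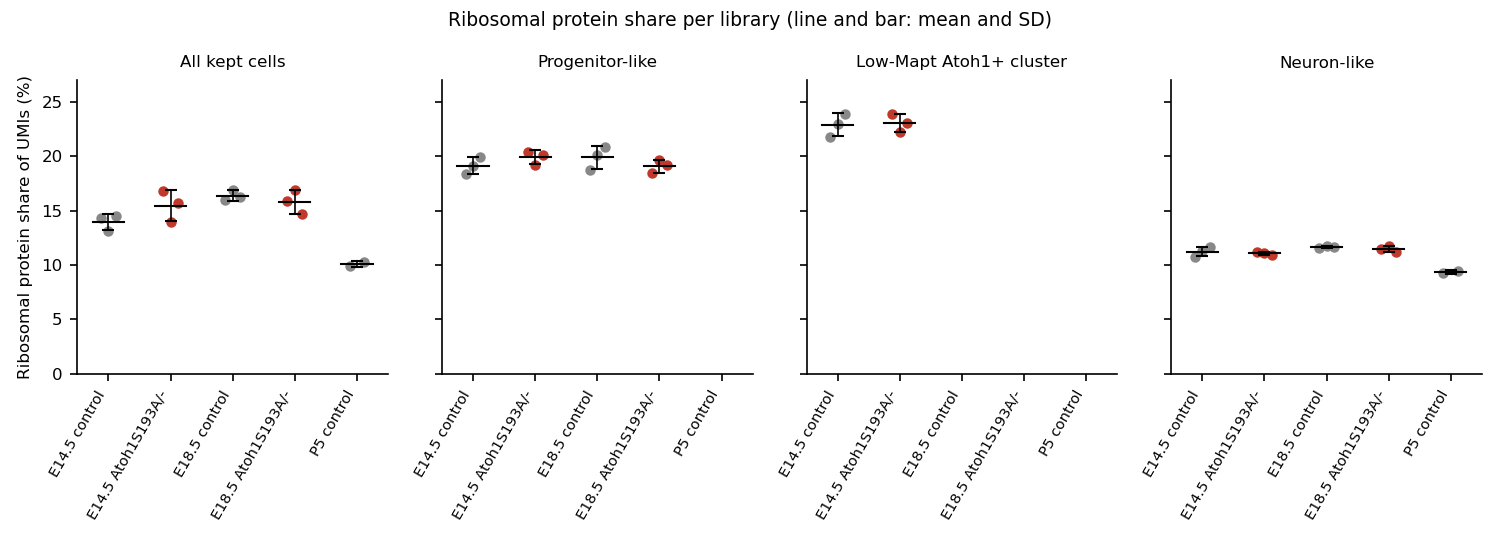
Member share of UMIs (%) in each library by stage and genotype, for all kept cells, progenitor-like cells, the low-Mapt *Atoh1*+ cluster (E14.5) and neuron-like cells, with a point per library and the group mean with bars of 1 SD. The genotypes overlap in every panel and stage, and the P5 libraries, at 9.93% and 10.3%, lie below all embryonic libraries in all kept cells.

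No member passed the test between genotypes without the littermate block. UMIs were summed per library and tested with edgeR's quasi-likelihood F test, and a gene was called at an adjusted p (Benjamini-Hochberg over all genes tested) under 0.05 with an absolute log2 change above 0.25. At E14.5, 0 of 77 members and 0.0195% of genes were called, 5 members (*Rpl31*, *Rps15a*, *Rps12*, *Rps15* and *Rpl23a*) and 11.7% of genes had an unadjusted p under 0.05, and DESeq2 called 0 members. The estimates were positive for 76 of 77 members, with a median of 0.11 against 0.01 for all genes, and they ran from −0.05 for *Rpl29* to 0.58 ± 0.24 (SE) for *Rps28*, which had an adjusted p of 0.43 in edgeR. *Rps28* stood at 844, 1190 and 1438 CPM in controls and 2200, 1463 and 1615 CPM in mutants, all mutants above all controls, with the lowest control and the highest mutant in the same litter. Of the members, 14 were higher in every mutant than in every control library, compared with 11% of genes. With the Cell Ranger 5.0.1 libraries alone, which leaves 1 control, 48 estimates were positive and 29 negative.

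With the littermate pairs as a block, edgeR called 1 member at E14.5, *Rps27l*, together with 17.4% of genes. *Rps27l* stood at 282, 215 and 256 CPM in controls and 349, 235 and 342 CPM in mutants, higher in 3 of 3 pairs, with a log2 change of 0.26 ± 0.07 (SE, adjusted p = 0.0438). Within classes it was not called with or without the block. In neuron-like cells it went from 160 to 157, 146 to 139 and 148 to 149 CPM from control to mutant in pairs 1 to 3, and in progenitor-like cells from 478 to 500, 486 to 432 and 478 to 497 CPM, so the pairs lay on both sides in each class. The progenitor-like share of cells was higher in the mutant of every pair, as given above, and its part in the call was not tested. Of the 77 members, 64 were higher in the mutant of every pair (36% of genes). At E18.5, 0 members and 0% of genes were called, with 0 members at an unadjusted p under 0.05 in edgeR (1.16% of genes), 0 called by DESeq2 and 0 with the block (0.253% of genes). There 77 of 77 estimates were negative with a median of −0.05, and 14 members were lower in the mutant of every pair (8.88% of genes), but without E18.5 Atoh1S193A/- library 3 the median was 0.02 and 42 estimates were positive.

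Within classes, too, no member was called between genotypes. In progenitor-like cells at E14.5, edgeR and DESeq2 called 0 members (0.174% of genes by edgeR), with 0 at an unadjusted p under 0.05 (9.69% of genes) and a median of 0.03, and 28 members were higher in every mutant of a pair (25.1% of genes). In progenitor-like cells at E18.5, 0 members (0.33% of genes) were called by edgeR, 0 had an unadjusted p under 0.05 (5.27% of genes), and 0 were called by DESeq2, with a median of −0.07, and 28 were lower in every pair (11.5% of genes). In neuron-like cells edgeR called 0 members at E14.5 (0% of genes, median −0.07) and 0 at E18.5 (0%, median −0.02), with 0 at an unadjusted p under 0.05 at either stage (1.03% and 1.25% of genes) and 0 called by DESeq2. There 3 members were higher (32% of genes) and 23 lower (10.8% of genes) in the mutant of every pair at E14.5, and 12 higher (17.5% of genes) and 6 lower (10.3% of genes) at E18.5. The genotype effects of the 2 stages, compared by an interaction term, differed for 0 of 77 members in edgeR (0% of genes, 5 members and 7.56% of genes at an unadjusted p under 0.05), with a median difference of −0.14, and *Rps28* had the largest difference at −0.76 ± 0.30 (SE, adjusted p = 0.586). The littermate block was not part of this model. DESeq2 was not run on the interaction.

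Between single libraries the members were in several cases ordered by length. In littermate pair 1 of E14.5 the log2 ratio of mutant to control was lower for members of longer coding sequence, across the 77 members, with Spearman's rho of −0.78, whereas over 1638 other genes rho was 0.01. The other pairs gave 0.19 and 0.05 at E14.5, where the other genes gave 0.28 and 0.18. At E18.5 the members gave 0.66, −0.28 and 0.45 and the other genes 0.03, −0.31 and 0.34. The log2 ratio of P5 library 1 to library 2 gave −0.86 over the members and 0.30 over the other genes. The members and the other genes were thus far apart in pair 1 of each embryonic stage and at P5, and close or weaker in the members in pairs 2 of both stages and pair 3 of E14.5. The points of each coefficient are genes of the same pair of libraries, so it is a description of that pair with no test. The 10 members of the shortest coding sequence (*Rpl41*, *Rpl39*, *Rps29*, *Rps28*, *Rpl38*, *Rps21*, *Rps27*, *Rpl37a*, *Rpl37* and *Rpl36*) held 11.0% of member UMIs in E14.5 control 1, 14.3% in its littermate and, over the 14 libraries, up to 16.8% in E18.5 control 3. *Rpl41*, the shortest, stood at 2146 CPM in E14.5 control 1 and at 3372 CPM in its littermate, and *Rpl38* at 1080 and 1847 CPM, while *Rpl4*, among the longest, stood at 655 and 739 CPM. Several of these short members are among those called between stages below, and the part of length in those results was not tested.

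**Figure D4:**
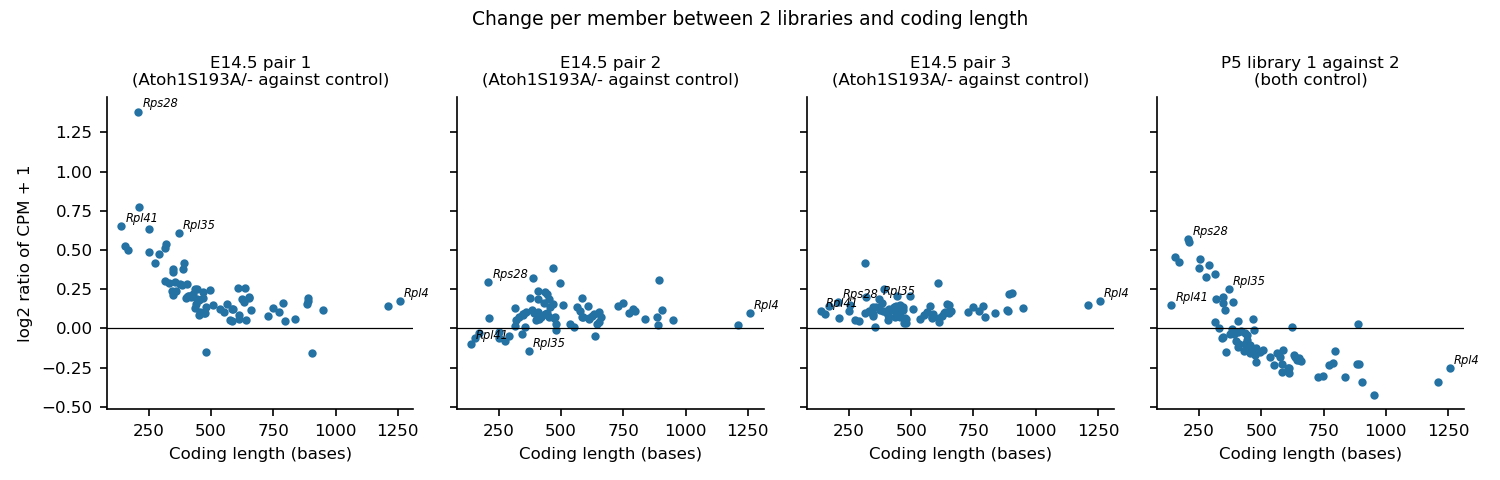
Log2 ratio of CPM + 1 against coding length (bases) for the 77 measured members, in the littermate pairs of E14.5 (mutant over control) and between the P5 libraries. Short members such as *Rps28* and *Rpl41* lie above long ones such as *Rpl4* in pair 1 (rho −0.78) and in the P5 libraries (rho −0.86), and no such slope is seen in pairs 2 and 3 (rho 0.19 and 0.05).

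Few members changed between E14.5 and E18.5 in Atoh1S193A/- embryos, whose 6 libraries share the Cell Ranger version. The edgeR test called 2 of 77 members, while 33.1% of genes were called, and the median over the members was −0.02. *Rpl4*, a large subunit protein that lines the exit tunnel, rose from 739, 640 and 726 CPM to 1038, 1086 and 846 CPM (log2 change 0.45 ± 0.13, SE, adjusted p = 0.0417). *Rpl27* fell from 702, 550 and 486 CPM to 381, 362 and 485 CPM (−0.55 ± 0.17, adjusted p = 0.044), and the lowest E14.5 and the highest E18.5 library of *Rpl27* lay 1 CPM apart. Neither call held in every set of libraries, since 0 members were called by edgeR without E14.5 Atoh1S193A/- library 1 or 3 or without E18.5 library 1 or 2, with 1 to 7 members at an unadjusted p under 0.05, and 1 was called without E14.5 library 2. Over all refits without 1 library, the genes called ran from 1663 to 4016, compared with 3455 with all libraries. On library totals without scaling factors the called members were 2 higher and 0 lower (32.5% of genes in either direction).

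In progenitor-like cells of the mutants 3 members were called (43.9% of genes). *Rps15a*, a small subunit protein, fell from 3623, 3556 and 3310 to 2897, 2777 and 2789 CPM (−0.33 ± 0.08, adjusted p = 0.00937 in edgeR), *Rpl27* fell by 0.58 and *Rpl4* rose by 0.38 on the log2 scale. The groups of *Rpl27* overlapped, at 780, 655 and 539 CPM at E14.5 and 402, 383 and 550 CPM at E18.5. The markers of the class moved with stage as well: from E14.5 to E18.5 in these mutants the summed CPM of 12 astroglia genes went from 794 to 1026 down to 124 to 168 CPM, with *Gfap* at 0 in at least 1 E14.5 library, that of 12 maturing neuron markers from 1054 to 1487 up to 2349 to 2462 CPM, and that of 10 cycling markers from 4007 to 4686 up to 5920 to 6209 CPM. Their part in the result was not tested. In neuron-like cells 5 were called (39.4% of genes). *Rpl4* rose from 491, 527 and 527 to 727, 735 and 633 CPM (0.39 ± 0.08, adjusted p = 0.00924 in edgeR), and *Rplp1* from 1175, 1281 and 1378 to 1605, 1659 and 1747 CPM (0.34 ± 0.08). *Rps29* rose by 0.49 ± 0.14, and *Rpl27* and *Rps26* fell by 0.58 and 0.27. The groups of *Rpl27* overlapped here too, with 404 CPM in the lowest E14.5 and 406 CPM in the highest E18.5 library. *Rpl4* was thus the member called in both classes and in all cells with a rise. *Rpl27* was not called in either class without E14.5 library 1 or without E18.5 library 1 or 2. In neuron-like cells the call of *Rps26* was lost under 7 of 12 alternatives, that of *Rps29* under 5 and that of *Rplp1* under 4. The counts turned on single libraries, with 11 called in progenitor-like cells without E14.5 library 2 (1 higher and 10 lower) and 1 without E18.5 library 2, and with 3 called in neuron-like cells without E18.5 library 1 and 1 without E18.5 library 2. Over the refits without 1 library, the genes called also moved. They ran from 3335 to 4871 in progenitor-like cells (4628 with all libraries) and from 2660 to 4820 in neuron-like cells (3947). Restricting the neuron-like class to maturing clusters gave 1 higher (21.9% of genes) and 7 lower (20.3% of genes), and library totals without scaling factors gave 2 higher and 2 lower in progenitor-like cells (42% of genes in either direction) and 3 higher and 1 lower in neuron-like cells (39.2% of genes).

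In controls, 19 of 77 members were called between E14.5 and E18.5 (51.6% of genes), 18 higher (26.5% of genes) and 1 lower (25.1% of genes), with a median of 0.14 against 0.01 for all genes. *Rps28* rose from 844, 1190 and 1438 to 2317, 2484 and 2663 CPM (1.01 ± 0.21, SE, adjusted p = 0.00606 in edgeR), and *Rps29*, another of the shortest members, from 2138, 2084 and 2242 to 3526, 4290 and 4466 CPM (0.85 ± 0.12, adjusted p = 0.00155). *Rpl4* rose from 655, 597 and 642 to 1036, 1066 and 888 CPM (0.57 ± 0.09), *Rps27* from 1251, 1180 and 1081 to 1654, 1617 and 2021 CPM (0.51 ± 0.11) and *Rpl38* from 1080, 1203 and 1308 to 1608, 1692 and 2026 CPM (0.49 ± 0.14). The groups of these 5 did not overlap, and over all members 46 were higher in every E18.5 than in every E14.5 library, compared with 37.9% of genes. *Rpl29* fell from 1379, 1503 and 1491 to 1219, 1338 and 1274 CPM (−0.27 ± 0.09, adjusted p = 0.0371), a call that was lost under 8 of 15 alternatives. *Rpl38* was not called without E14.5 control 1, where its log2 change was 0.40. The 10 shortest members had a median of 0.40 and the others 0.10. Progenitor-like cells took 22.1%, 21.1% and 18.6% of the cells of E18.5 controls, compared with the 9.27%, 5.27% and 9.62% of E14.5 controls, and the summed CPM of 10 cycling markers ran from 1795 to 2218 against 503 to 859 CPM. The part of this cell mix in the result was not tested.

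The control comparison had fewer calls without the libraries of the older software. With Cell Ranger 5.0.1 libraries alone, which leaves 1 control at E14.5 assumed to vary like the E18.5 controls, 3 members were called (*Rps29* at 0.74, *Rps28* at 0.66 and *Rpl4* at 0.51) beside 39.4% of genes, with a median of 0.02. A term for the version, which sets E14.5 control libraries 1 and 2 against control 3 and cannot be told apart from those embryos, called 0 of 77 members in edgeR (0% of genes, with 0 members and 1.37% of genes at an unadjusted p under 0.05), with 70 of 77 estimates negative and a median of −0.14. DESeq2 was not run on this term. Library totals without scaling factors gave 29 members, 29 higher (31.9% of genes) and 0 lower (19.5% of genes), and totals that leave out the member genes gave 36, 36 higher (35.3% of genes) and 0 lower (17.2% of genes), with the median of all genes at 0.13. The members called numbered 14 without E14.5 control 1, 12 without E14.5 control 2 or without E18.5 control 1, and 11 without E18.5 control 2. Over all refits without 1 control library, 4050 to 5313 genes were called, compared with 5306 with all libraries.

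**Figure D5:**
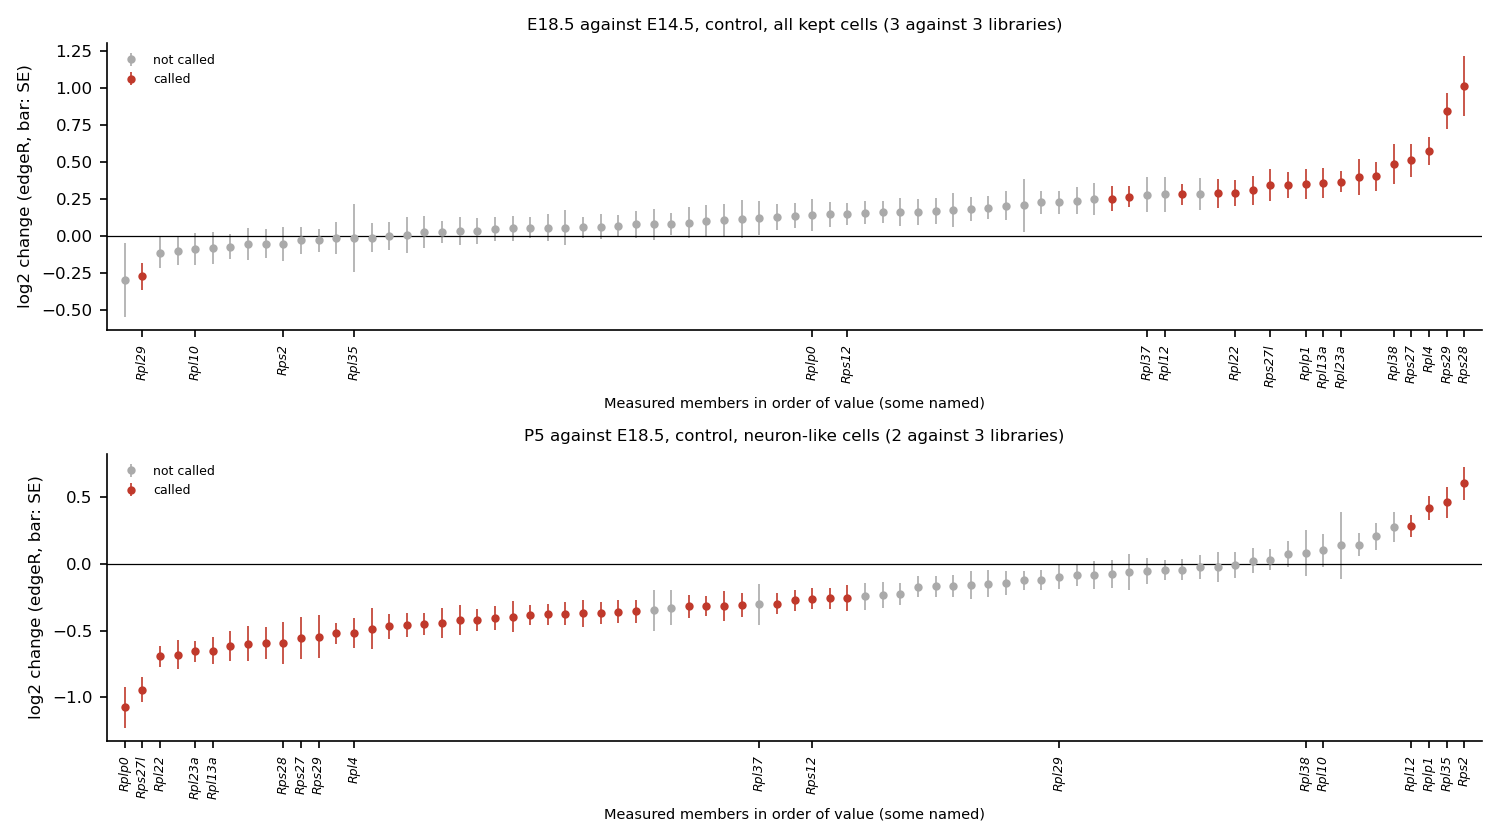
Log2 change ± SE from edgeR for each of the 77 measured members, control E18.5 against E14.5 in all cells and P5 against E18.5 control neuron-like cells, with called members in red and some members named on the axis. *Rps28* and *Rps29* rise furthest in the first panel (1.01 and 0.85), and *Rplp0* and *Rps27l* fall furthest in the second (−1.07 and −0.94).

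Of the stage comparisons, that of P5 with E18.5 in control neuron-like cells had the most called members, and there stage, dissected tissue and pooling cannot be told apart. The test called 43 of 77 members (69% of genes), 4 higher (33.9% of genes) and 39 lower (35.1% of genes), with a median of −0.27 against −0.03 for all genes. The E18.5 controls enter both this comparison and the one with E14.5. *Rplp0* fell from 1758, 1881 and 1561 CPM to 648 and 885 CPM (−1.07 ± 0.15, SE, adjusted p = 0.000426 in edgeR). *Rps27l* fell from 206, 174 and 173 CPM to 89.2 and 89.2 CPM (−0.94 ± 0.09, adjusted p = 7.59e-05 in edgeR). *Rpl22*, which is known for a role in T cell development, fell from 700, 653 and 671 to 391 and 389 CPM (−0.69 ± 0.08), and *Rpl23a* fell from 1488, 1398 and 1376 to 865 and 819 CPM (−0.65 ± 0.08).

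The members that rose at P5 were *Rps2* (0.61 ± 0.12), from 1326, 1537 and 1517 to 1841 and 2301 CPM, *Rpl35* (0.46 ± 0.12), *Rplp1* (0.42 ± 0.09) and *Rpl12* (0.29 ± 0.08). Of the ribosomal stalk, *Rplp0*, its anchor, was thus lower at P5 and *Rplp1*, one of the acidic proteins that bind it, higher, from 1648, 1625 and 1833 to 2092 and 2149 CPM. *Rplp2*, the other acidic protein, was at −0.23 ± 0.10 and was not called. Without P5 library 1, *Rpl35* was at 0.33 and was not called, and the call of *Rpl12* was lost under 5 of 11 alternatives. The summed CPM of glial markers in the neuron-like cells was also higher at P5, with 254 to 322 against 77.9 to 110 CPM for 12 astroglia genes, 165 to 225 against 94.3 to 124 CPM for 11 oligodendrocyte lineage genes and 32.1 to 40.7 against 8.08 to 9.97 CPM for 11 microglia genes, of which *C1qb*, *C1qc*, *Ctss*, *Trem2* and *Tyrobp* were at 0 in at least 1 E18.5 control library, and their part in the result was not tested. In the same cells the summed CPM of 10 newborn neuron markers was 1780 to 2000 at P5 against 6091 to 6623 CPM at E18.5, and that of 12 maturing neuron markers 23490 to 23956 against 15358 to 16516 CPM. In the maturing neuron-like clusters alone, 25 members were called (68% of genes), 6 higher (33.7% of genes) and 19 lower (34.3% of genes).

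Other genes of translation and growth were read in the same fits. In all cells of Atoh1S193A/- embryos, where 16.4% of genes were called higher and 16.7% lower at E18.5, 10 of 50 ribosome biogenesis genes rose and 2 fell. *Utp20* of the small subunit processome rose by 0.60 ± 0.14 on the log2 scale, *Polr1a*, the largest subunit of RNA polymerase I, by 0.57 ± 0.14 and *Lyar*, a nucleolar factor, by 0.55 ± 0.17, whereas *Bysl*, which acts in small subunit assembly, changed by −0.44 ± 0.08 and *Polr1c* by −0.28 ± 0.09. Of 77 mitochondrial ribosomal protein genes 15 fell and 0 rose, led by *Mrps6* (−1.08 ± 0.14), *Mrpl49* (−0.51 ± 0.10) and *Mrpl22* (−0.50 ± 0.11). Of 19 growth and mTOR regulators 4 rose and 2 fell. *Cdkn1a*, a cell cycle inhibitor, rose by 0.81 ± 0.23, *Rptor*, the defining subunit of mTORC1, by 0.44 ± 0.10 and *Larp1*, which binds terminal pyrimidine tracts, by 0.41 ± 0.10, and *Myc* fell by 1.20 ± 0.28 and *Mycl* by 0.68 ± 0.16. Of 18 elongation and other pyrimidine-tract mRNAs, *Pabpc1* (0.49 ± 0.14) and *Eif4b* (0.34 ± 0.09) rose and *Vim* (−1.11 ± 0.23) and *Eif3f* (−0.43 ± 0.10) fell, and of 24 initiation factors *Eif4g1* rose (0.51 ± 0.12). No ribosomal protein outside the symbol rule and no gene of the dissociation response passed the test in all cells. These are values over all cells, in which the summed CPM of 10 cycling markers was 707 to 1313 at E14.5 and 1727 to 2383 CPM at E18.5. In progenitor-like cells, where 21.7% of genes were called higher and 22.1% lower, 8 of 50 biogenesis genes were higher and 3 lower, and 1 of 77 mitochondrial ribosomal protein genes was higher and 26 lower. There 2 of 7 ribosomal proteins outside the symbol rule (*Rpl22l1* and *Rpl7l1*) and 4 of 10 dissociation genes (*Fos*, *Junb*, *Ier2* and *Btg2*) were lower, and 0 of either list were higher. In neuron-like cells, where 20.6% of genes were called higher and 18.8% lower, 6 of 47 biogenesis genes were higher and 4 lower, and 1 of 77 mitochondrial ribosomal protein genes was higher and 27 lower. *Rpl22l1*, 1 of 7 ribosomal proteins outside the symbol rule, was lower there, and *Egr1*, 1 of 9 dissociation genes, was higher. *Cdkn1a* was at −0.36 ± 0.18 and *Myc* at −0.91 ± 0.35 in progenitor-like cells, neither of them called, and at 1.68 ± 0.29 and −1.11 ± 0.27 in neuron-like cells, where both were called.

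The same lists in controls, where 26.5% of genes were higher and 25.1% lower, gave 20 of 49 biogenesis genes higher and 2 lower and 1 of 77 mitochondrial ribosomal protein genes higher and 33 lower. From E18.5 to P5 in control neuron-like cells, where 33.9% of genes were higher and 35.1% lower, 34 of 77 mitochondrial ribosomal protein genes were higher and 5 lower, and 10 of 49 biogenesis genes were higher and 18 lower, beside 4 and 39 of 77 members. Of 7 ribosomal proteins outside the symbol rule, *Rpl22l1* was higher and *Rack1* lower. Of 18 elongation and other pyrimidine-tract mRNAs 2 were higher and 8 lower. Of 10 dissociation genes 3 were higher and 4 lower, and their part in the P5 result was not tested. The difference between these lists was not itself tested.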

How the data were processed

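Sorted cells were profiled with 10x Genomics droplet 3′ chemistry. What the authors deposited is a matrix of UMI counts for each library, made with Cell Ranger against mm10 with the WPRE sequence added (version 5.0.1 per the submitters' processing notes, 3.1.0 per the file headers of 2 libraries). The deposited matrices held 150188 barcodes. A barcode stayed in if 1000 genes or more were detected and under 5% of its UMIs were mitochondrial, which left 86757. The study states a stricter mitochondrial limit of 1%, which was not applied, mitochondrial UMIs being 3.43% to 5.48% of all UMIs in the deposited libraries, and its doublet caller was replaced by Scrublet, with the top 7.5% of each library removed (6507 cells). These were clustered per stage in scanpy 1.11.5 (Python 3.11.15) with leidenalg 0.10.2, from 2000 variable genes, 30 components, 15 neighbours and resolution 1.0, after the members and the related gene lists had been taken out. Clusters were named from marker lists, and the naming limits (a mean z of 0.5, or 1.0 for progenitors, and a mean ln-scaled *Mapt* of 1.0 for neuron-like) were set after cluster means had been seen.

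UMIs were summed per library, or per library and class with at least 20 cells, and genes detected in 10% or more of a group's cells were tested in edgeR 4.0.16 (R 4.3.3, TMM, quasi-likelihood F test), where the study used a cell-level test. A gene was called at a Benjamini-Hochberg adjusted p under 0.05 and an absolute log2 change over 0.25. DESeq2 1.42.0 was an alternative, as were other scalings, filters, cell sets, clusterings, the replicate block and leaving out each library. The maturing-cluster, class-mix and outside-rule alternatives were chosen after seeing the data. The edgeR step was tested on simulated data. The members and lists were chosen with earlier results of these data known, and the share of the members has no p. Called members are named if 10 or fewer, otherwise the 5 largest rises and falls without overlap between groups, and some results for single members are not reported here. Each embryonic library is 1 embryo and the P5 libraries are pools, so the p-values measure the spread between these. The labels' protocol gives each mutant a littermate control, so control and mutant libraries of the same replicate number were taken as littermates. Their deviations from the group means, over 1734 genes, correlated at 0.57, 0.86 and 0.86 at E14.5 and at 0.75, 0.78 and 0.92 at E18.5. Libraries of unlike number correlated at −0.72 to 0.30 at E14.5 and at −0.80 to 0.52 at E18.5. A litter and a shared batch of processing cannot be told apart by these values. The number of columns of other series used was 0. Start windows and their positions are from RefSeq on GRCm38. Pseudogene symbols took 0.0045% to 0.0082% of UMIs.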

Additional observations from a re-analysis of the deposited data

Results flagged for a closer look

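In all kept cells and in progenitor-like cells, the difference between mutant and control in the member share of UMIs pointed in opposite directions at the 2 embryonic stages, with each of the 3 littermate pairs of a stage on the same side. In neuron-like cells pairs lay on both sides at each stage, at 0.446, −0.194 and −0.647 points at E14.5 and −0.142, 0.0383 and −0.469 points at E18.5. In all kept cells the mean difference was 1.49 percentage points at E14.5 and −0.579 points at E18.5, which lie 2.06 points apart. In progenitor-like cells it was 0.801 and −0.816 points, 1.62 points apart, with pair values of 2.04, 0.160 and 0.198 at E14.5 and −0.306, −0.417 and −1.73 at E18.5. In progenitor-like cells of E14.5 the summed CPM of 12 maturing neuron markers was 2049 to 2593 in controls and 1054 to 1487 in mutants, and that of 10 newborn neuron markers 3622 to 4371 and 2829 to 2974 CPM, with no overlap in either list. The 12 dissociation genes summed to 1375, 1042 and 1075 CPM in those of controls 1 to 3 and 1581, 1269 and 1304 CPM in those of their mutant littermates. In progenitor-like cells of E18.5 they summed to 983, 802 and 1170 CPM in controls and 917, 909 and 1343 CPM in mutants. The part of these lists in the result was not tested. Pair 1 of E14.5 and pair 3 of E18.5 gave the largest values in both. In all kept cells of E18.5, the mutant had 42 members higher and 35 lower in pair 1 and 38 and 39 in pair 2. In pair 3 it had 0 and 77, and that mutant library had the lowest median UMIs per cell, 12010.5. With every deposited barcode, pair 1 of E18.5 turned, at 15.53% in the control and 15.57% in the mutant. The study lists a female control and a male mutant in pair 1 of E14.5 and like sexes in the other pairs. The part of depth and sex was not tested. The difference in the share was not tested, and the test of each member's interaction of stage and genotype in edgeR called 0 of 77, with 5 at an unadjusted p under 0.05. That test had no littermate block, so it cannot decide on a difference within pairs. In pairs 1 and 2 of E14.5 the control library was processed with Cell Ranger 3.1.0 and its mutant littermate with 5.0.1. The values of pair 2 were 0.798 points in all cells and 0.160 in progenitor-like cells, and those of pair 3, with 5.0.1 in both libraries, 1.18 and 0.198. Version and genotype cannot be told apart in pairs 1 and 2, and the part of the version was not tested.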

How the results depend on the processing

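The 72 member calls of the stage comparisons kept their direction in all 879 refitted values, whether or not they stayed called. A gene counts once per comparison in the 72. The refits reuse most of the same libraries, so a kept direction is little support. Of the refitted values of the named members, 259 stayed called and 51 did not. With the replicate block, which uses the littermate pairs, 1 member was called between genotypes at E14.5 in all cells instead of 0, and the genes called rose from 2 to 1783 in all cells and from 18 to 780 in progenitor-like cells, and at E18.5 from 0 to 25 and from 33 to 154. The block changed no other call of a member. DESeq2 called 249 and 269 genes at E14.5 and 13 and 89 at E18.5 in all and progenitor-like cells, with 0 members. Between stages in Atoh1S193A/- embryos, 1 member was called with library totals that leave out the member genes (33.6% of genes) and 4 with DESeq2, compared with 2. Over all alternatives of that comparison, 1663 to 5366 genes were called, compared with 3455. In maturing neuron-like clusters 8 members were called (42.2% of genes), compared with 5 in the neuron-like class. Between stages in controls, 29 were called with library totals without scaling factors, 36 with totals that leave out the member genes and 3 with Cell Ranger 5.0.1 libraries alone, compared with 19. At P5, 25 were called in maturing clusters alone, compared with 43. At P5, library totals without scaling factors, and those that leave out the member genes, put the median of all genes at −0.13 and −0.16. The wider filter on low counts gave 5366, 8056 and 11899 called genes in the mutant, control and P5 comparisons, where 3455, 5306 and 7565 passed. The member share moved to 13.1% in E14.5 controls and 15.7% in E18.5 controls with every deposited barcode, to 17.0% and, at P5, 10.4% without mitochondrial UMIs in the denominator, to 15.7% and 11.1% as the mean of single-cell shares, to 17.1% and 10.6% with the ribosomal proteins outside the symbol rule, and to 11.95% in E18.5 neuron-like cells at Leiden resolution 2.0.

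Leaving out 1 library at a time gave 0 to 2 called members between stages in mutants, 1 to 11 in their progenitor-like and 1 to 5 in their neuron-like cells, 11 to 17 in controls, 36 to 43 at P5 and 0 in the genotype, interaction and version tests. In the same order, the genes called ran from 1663 to 4016, 3335 to 4871, 2660 to 4820, 4050 to 5313 and 6882 to 7632. In the genotype, interaction and version tests at most 24 genes were called. The share ran from 13.7% to 14.4% in E14.5 controls, 14.8% to 16.2% in E14.5 mutants, 16.1% to 16.6% in E18.5 controls, 15.3% to 16.4% in E18.5 mutants and 9.93% to 10.3% at P5. By class it ran from 19.3% to 19.7% (E14.5) and 19.2% to 19.7% (E18.5) in progenitor-like, 22.8% to 23.2% in the low-Mapt *Atoh1*+ cluster, and 11.1% to 11.2% (E14.5), 11.5% to 11.6% (E18.5) and 9.26% to 9.47% (P5) in neuron-like cells. With 3 libraries a group, or 2 at P5, small changes of a single member could pass unseen.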

Other observations

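Smaller classes outside the comparisons above also differed in the member share. At P5, fibroblast-like cells stood at 16.4% ± 0.11 (SD, n = 2 libraries, 114 cells) and an endothelial-like cluster of 1 library at 18.8% (50 cells). Choroid plexus or ependyma-like cells of E14.5 stood at 12.9% ± 1.91 (n = 5 libraries with enough cells). Astroglia-like cells stood at 13.1% ± 0.81 at E14.5 and 14.7% ± 1.71 at E18.5, above the 9.10% ± 0.69 of P5. An unnamed P5 cluster led by macrophage genes such as *Pf4*, *F13a1* and *Mrc1* had 18.4% ± 0.52, and an unnamed cluster led by haemoglobin genes 11.2% ± 0.06.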
